A study of Rattus norvegicus with 6 samples.

Results

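Cartilage matrix is built from collagen fibrils and proteoglycans, and a set of smaller secreted proteins lies among these networks and in part links them. The 10 genes described here encode secreted proteins of this kind, not all of them limited to cartilage, the 4 matrilins (Matn1, Matn2, Matn3 and Matn4), the cartilage oligomeric matrix protein Comp, the cartilage intermediate layer protein Cilp, chondromodulin (Cnmd), Ucma and the C-type lectin domain proteins Clec3a and Clec3b. They were chosen by name as noncollagenous cartilage matrix proteins that are not proteoglycans, with earlier results of these data known. Each symbol matched 1 of the 18923 genes measured. All 10 lay lower in every sample treated with retinoic acid (RA) than in every control (CON) sample, as did 13.3% of all genes tested. Of the 10, 9 passed the threshold for a differentially expressed gene (DEG), a call made in this direction for 2.29% of all genes tested. Clec3a had the steepest fall, to 12.9% of its mean CON level. Matn4 kept the most, 70.2%, and was not a DEG.

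Poly(A) RNA was sequenced from primary wild-type chondrocytes of 24 h old female Sprague-Dawley rats, 3 CON and 3 RA samples. The cells had been released from cartilage with collagenase and were at passage 1 or 2. Both groups grew in high-glucose DMEM with fetal bovine serum and antibiotics, and the RA group also received 1 µM all-trans RA for 24 h, while CON was kept in the medium without RA for 24 h. Whether CON received the solvent of RA is not given, so RA and its solvent cannot be told apart. The samples are described as independent, but whether each came from 1 animal or from pooled animals is not given, so p-values measure the spread between these samples alone. Each sample held between 29370025 and 38007486 counted reads. CON1 stood apart from the other controls. The chi-square statistic per degree of freedom for a difference in counts was 39.4 between CON1 and CON2 and 63.5 between CON1 and CON3. It was 8.13 between CON2 and CON3 and 6.40 to 8.09 among the RA samples, so no pair of libraries agreed within sampling noise. Between CON and RA samples it was 54.7 (CON2 and RA2) to 101 (CON1 and RA3). CON1 thus differed from CON3 by as much as some CON samples differed from RA samples. CON1 held the lowest CON level of Matn1, Matn4, Comp, Cilp and Clec3b and the highest of Ucma and Clec3a.

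Matrilins are oligomeric adaptor proteins with von Willebrand factor A domains that bind collagen fibrils, aggrecan and COMP. COMP is a pentameric thrombospondin that binds collagens and guides fibril assembly, and mutations in COMP or MATN3 cause skeletal dysplasias of the growth plate. Chondromodulin restrains blood vessel growth in cartilage, and UCMA is a small vitamin K-dependent protein of the growth plate.

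Levels are given as FPKM, fragments per kilobase of transcript scaled to the library total, which allow comparison between genes. Changes are given as the log2 fold change of RA against CON from edgeR's quasi-likelihood test on the counts, with its standard error (SE). A DEG had a Benjamini-Hochberg adjusted p below 0.05 over all genes tested and a log2 fold change beyond 0.58. None of the 10 was lost to the filter on low counts. Of the 13438 genes tested, 308 (2.29%) were DEGs lower in RA and 359 (2.67%) were DEGs higher in RA, and 1792 (13.3%) had all RA samples below all CON samples in FPKM. Beside this background, 9 of the 10 genes were DEGs, all lower in RA, and 10 of 10 had groups that did not overlap. Since the 10 genes were chosen with earlier results of these data known, this comparison is not an independent test. Their median log2 fold change was -1.27, while that of all genes tested was -0.0057. The 10 genes together took 0.270% ± 0.0219 (SD, n = 3) of the counted reads in CON and 0.128% ± 0.0075 (SD, n = 3) in RA. Their summed level was 1519 ± 88.2 FPKM (SD, n = 3) in CON and 639 ± 34.1 FPKM (SD, n = 3) in RA. The number of DEGs among them ranged from 7 (without RA1) to 10 (without CON1) when 1 sample was left out.

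**Figure D1:**
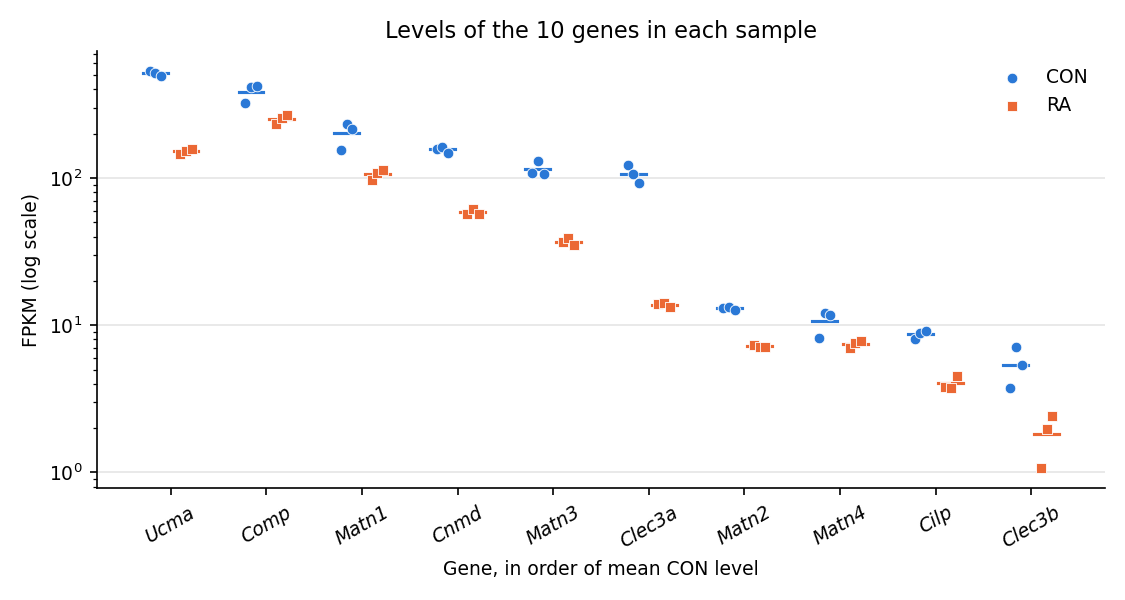
FPKM (log axis) of each gene in each sample, with CON as circles, RA as squares and the group mean (n = 3) as a bar. In every gene the 3 RA samples sit below the 3 CON samples, with the widest gap for Clec3a (107 against 13.8 FPKM on average) and the narrowest for Matn4 (10.6 against 7.47 FPKM).

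Matn1 (ENSRNOG00000010932), the founding matrilin and a marker of hyaline cartilage, stood at 155, 234 and 216 FPKM in CON1, CON2 and CON3. Its RA levels were 97.5, 108 and 114 FPKM. The RA samples lay close together, while CON1 was well below the other controls and still above each RA sample. Matn1 fell by 0.93 on the log2 scale (SE 0.144, edgeR adjusted p = 0.00492), and without CON1 the log2 fold change was -1.09. Matn3 (ENSRNOG00000056141), the matrilin most restricted to cartilage, was at 108, 130 and 107 FPKM in CON. In RA it was at 36.5, 39.2 and 35.1 FPKM. It had the steepest fall of the matrilins, a log2 fold change of -1.65 (SE 0.0875, edgeR adjusted p = 2.54e-05), or 3.14-fold lower.

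Matn2 (ENSRNOG00000006060) and Matn4 (ENSRNOG00000014021) are matrilins that connective tissues outside cartilage also make, and here they were minor transcripts. Matn2 had 13.1, 13.4 and 12.7 FPKM in CON and 7.32, 7.07 and 7.13 FPKM in RA. Both groups were tight, and Matn2 fell by 0.87 on the log2 scale (SE 0.0611, edgeR adjusted p = 9.69e-05). Matn4 had 8.16, 12.1 and 11.7 FPKM in CON and 7.05, 7.56 and 7.78 FPKM in RA. CON1 reached almost down to the RA samples. Its log2 fold change was -0.52 (SE 0.148, edgeR adjusted p = 0.0633), which met neither part of the DEG threshold. Without CON1 the change was -0.69 (edgeR adjusted p = 6.89e-05) and Matn4 was a DEG. DESeq2 gave Matn4 an adjusted p of 0.00932 at the same size of change, which remained under the fold threshold.

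Matrilin mRNA as a whole went from 340 ± 52.4 FPKM (SD, n = 3) in CON to 158 ± 8.50 FPKM (SD, n = 3) in RA. Its make-up differed as well. Matn1 was 58.9% ± 4.01 (SD, n = 3) of the summed matrilin level in CON and 67.3% ± 1.94 in RA, and Matn3 went from 34.1% ± 3.70 to 23.4% ± 1.72, each without overlap between the groups. Matn4 went from a share of 3.11% ± 0.246 to 4.72% ± 0.0476, again without overlap, although its level was lower. Matn2 had 3.89% ± 0.613 in CON and 4.55% ± 0.334 in RA, and here the groups overlapped.

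**Figure D2:**
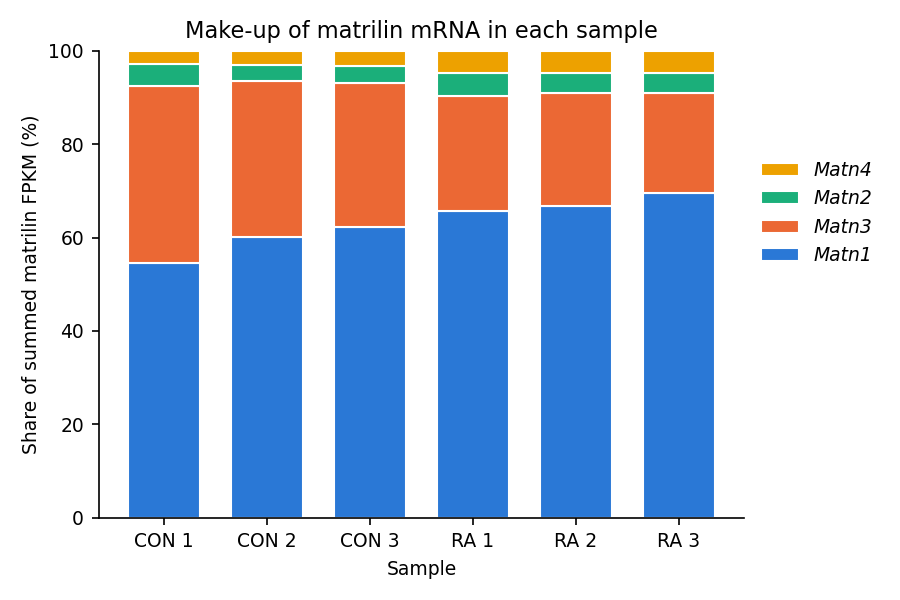
Share of the summed FPKM of the 4 matrilin genes (percent, stacked) in each of the 6 samples. Matn3 takes 30.8% to 38.1% in the CON samples and 21.4% to 24.6% in the RA samples, and Matn1 takes the largest share in all 6.

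Ratios between genes of the same sample do not depend on the scale of the library. Of 10 pairs compared by an exact two-sided permutation test, 9 had groups that did not overlap. Each of these had p = 0.1 in the exact test, the smallest value that 3 against 3 samples allow, and 0.111 after adjustment over the pairs, so none could reach 0.05. The difference of RA from CON in the log2 ratio was -1.15 for Matn3 to Matn4 and 0.78 for Matn2 to Matn3. Matn1 to Matn3 differed by 0.73 and Matn1 to Matn4 by -0.42. The ratio of Matn1 to Matn2 differed by -0.048, with overlapping groups (exact p = 0.8), and its sign depended on the samples, at -0.23 without CON1 and at 0.050, 0.034 and 0.029 without CON2, CON3 and RA1. Matn2 to Matn4 differed by -0.37, which became -0.19 without CON1.

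Comp (ENSRNOG00000048472) stood at 321, 417 and 421 FPKM in CON and at 231, 253 and 268 FPKM in RA. It was the most abundant of the 10 transcripts in RA and the next after Ucma in CON. CON1 was again the low control, and the highest RA sample stayed below it. Comp fell by 0.64 on the log2 scale (SE 0.111, edgeR adjusted p = 0.00855), or 1.56-fold. This call was near both parts of the threshold, since Comp was not a DEG without CON3 (log2 fold change -0.56) or without RA1 (-0.57, edgeR adjusted p = 0.0506), and without CON1 the change was -0.76. Cilp (ENSRNOG00000029911), a protein of the middle zone of articular cartilage that binds growth factors, was a minor transcript at 8.02, 8.83 and 9.14 FPKM in CON. In RA it had 3.80, 3.77 and 4.53 FPKM. Cilp was 2.17-fold lower in RA, with tight samples in both groups (log2 fold change -1.12, SE 0.0996, edgeR adjusted p = 2.85e-04). The difference between RA and CON in the log2 ratio of Cilp to Comp was -0.47, and for Matn3 to Comp and Matn1 to Comp, proteins that bind each other, it was -1.02 and -0.29.

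Ucma (ENSRNOG00000017987) was the most abundant of the 10 transcripts in CON at 536, 519 and 489.9 FPKM. In RA it had 146, 151 and 158 FPKM and ranked below Comp in every sample. The distance between the groups was many times the spread within either, and Ucma fell by 1.77 on the log2 scale (SE 0.0618, edgeR adjusted p = 4.39e-06). Its fall made up 41.3% of the summed fall in FPKM of the 10 genes, ahead of Comp with 15.4%. Ucma went from 34.0% ± 2.91 (SD, n = 3) of their summed level in CON to 23.8% ± 0.489 in RA, while Comp went from 25.4% ± 2.75 to 39.2% ± 0.873. Cnmd (ENSRNOG00000012821) was at 158, 163 and 148 FPKM in CON and at 57.0, 61.9 and 57.0 FPKM in RA. All samples of a group lay close together, and Cnmd was 2.69-fold lower (log2 fold change -1.43, SE 0.0654, edgeR adjusted p = 1.28e-05).

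Since the genes moved together, the stretches around their start sites were searched. RefSeq promoters of 300 bases (250 before the start and 50 after it, build GRCr8) were given for 4 of the 10 genes, Matn3, Comp, Cilp and Ucma. Those of Comp and Cilp, which held a match, and that of Ucma, the gene with the largest fall in FPKM, which held none, are printed 5′ to 3′ on the gene's strand, and capitals mark hexamers of a retinoid receptor half-site on either strand (searched were AGGTCA, the variant AGTTCA, the variant GGGTCA and the variant GGTTCA).
Comp, chr16:19089499-19089798, minus strand: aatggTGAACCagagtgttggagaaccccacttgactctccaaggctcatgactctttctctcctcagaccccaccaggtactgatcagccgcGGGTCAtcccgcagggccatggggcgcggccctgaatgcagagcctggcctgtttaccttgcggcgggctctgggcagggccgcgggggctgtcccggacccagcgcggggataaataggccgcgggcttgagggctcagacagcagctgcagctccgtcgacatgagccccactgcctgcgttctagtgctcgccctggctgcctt
Cilp, chr8:74672198-74672497, plus strand: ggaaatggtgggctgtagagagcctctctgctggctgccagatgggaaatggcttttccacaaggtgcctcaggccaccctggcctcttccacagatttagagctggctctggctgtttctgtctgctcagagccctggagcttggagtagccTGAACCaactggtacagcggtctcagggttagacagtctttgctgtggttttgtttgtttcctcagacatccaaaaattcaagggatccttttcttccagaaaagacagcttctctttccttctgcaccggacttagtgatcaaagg
Ucma, chr17:78212947-78213246, minus strand: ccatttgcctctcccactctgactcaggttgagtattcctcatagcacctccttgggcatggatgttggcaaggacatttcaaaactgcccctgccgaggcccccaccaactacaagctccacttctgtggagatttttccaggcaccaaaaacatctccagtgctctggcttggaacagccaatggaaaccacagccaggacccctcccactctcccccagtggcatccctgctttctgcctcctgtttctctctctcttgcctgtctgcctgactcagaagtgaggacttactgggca
Comp had GGTTCA on the opposite strand at positions -245 to -240 from the start site and GGGTCA on the given strand at -157 to -152. Cilp had GGTTCA on the opposite strand at -97 to -92. No such hexamer was in the Ucma or Matn3 window (Matn3 at chr6:37467479-37467778, plus strand). These hexamers stand in 44.4% of the 33469 promoters of the table, so 2 of 4 is near the background. The letters of a SOX site (ACAAAG or the variant ACAATG, 29.1% of all promoters) and of a TATA box (TATAAA, 14.2%) were in 0 of the 4 windows on either strand. The 4 windows had between 51% and 64.7% G and C, beside a median of 51.7% over all promoters.

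Clec3a (ENSRNOG00000012238), a lectin-domain protein of cartilage, had 122, 106 and 92.0 FPKM in CON. In RA it had 13.9, 14.1 and 13.3 FPKM. The RA samples were nearly equal, with 1000, 1002 and 1001 reads. The lowest control was still far above them, and the log2 fold change of -2.97 (SE 0.102, edgeR adjusted p = 4.39e-06) placed Clec3a at rank 10 of 13438 genes by size of fall. Clec3b (ENSRNOG00000004540) encodes tetranectin, a plasminogen-binding protein that circulates in plasma and is made by many tissues. It was the least abundant of the 10 genes, with 3.72, 7.09 and 5.37 FPKM in CON and 1.06, 1.99 and 2.43 FPKM in RA. These values rest on 94, 176 and 168 reads in CON and on 26, 48 and 62 in RA, so that counting error alone was 7.54% to 19.6% of a value, against 0.472% to 0.721% for Comp. Clec3b fell by 1.57 on the log2 scale (SE 0.336, edgeR adjusted p = 0.0217). It was a DEG in 3 of 6 fits that left out 1 sample, and not without CON2 (log2 fold change -1.33, edgeR adjusted p = 0.0873), RA1 (-1.29, adjusted p = 0.0638) or RA2 (-1.63, adjusted p = 0.0804). The log2 ratio of Clec3a to Clec3b differed by -1.40 between RA and CON.

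**Figure D3:**
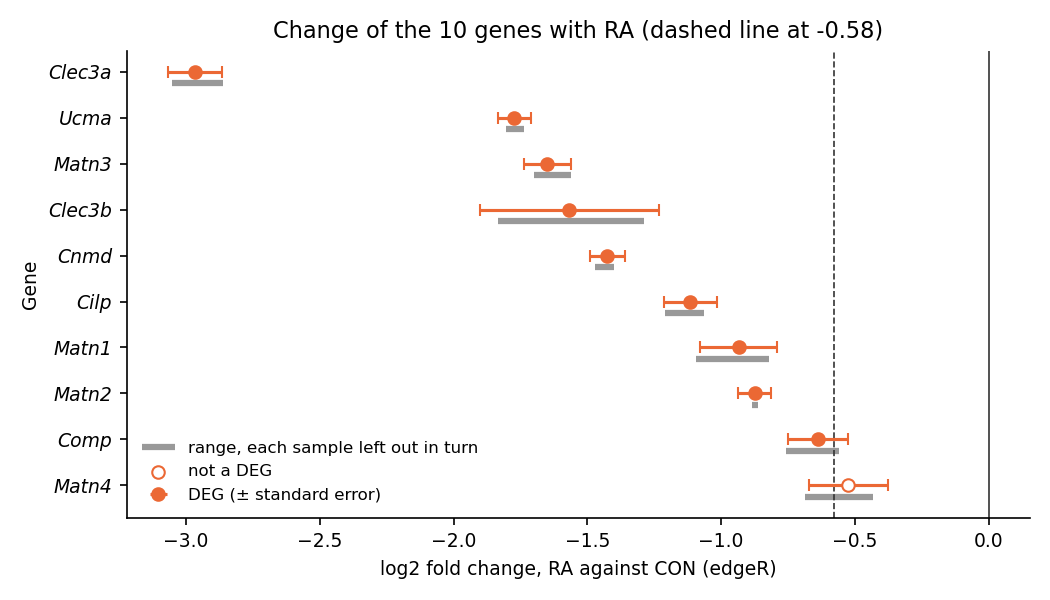
log2 fold change of RA against CON (points, ± SE from edgeR) for each gene, with filled points for DEGs, the open point for Matn4 and grey bars for the range over 6 fits that each left out 1 sample. Clec3a stands at -2.97, the other genes lie between -1.77 and -0.52, and the grey bars of Comp and Matn4 cross the dashed line at -0.58.

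The order of the levels changed with RA. In CON it ran Ucma, Comp, Matn1, Cnmd, Matn3, Clec3a, Matn2, Matn4, Cilp and Clec3b. Neighbours in that order overlapped for Matn1 and Cnmd, for Matn3 and Clec3a, and for Matn4 and Cilp. In RA the order was Comp, Ucma, Matn1, Cnmd, Matn3, Clec3a, Matn4, Matn2, Cilp and Clec3b, and Matn4 and Matn2 alone overlapped with a neighbour. Clec3a thus overlapped with Matn3 in CON and lay wholly below it in RA.

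Of 9 listed genes related to these by sequence or domain, 8 were tested by edgeR. Of the 8, 0 were DEGs lower in RA and 1 was a DEG higher, beside 2.29% and 2.67% of all genes tested. Their median log2 fold change was -0.26. At an unadjusted p below 0.05, which 11.7% of all genes tested passed as lower and 12.3% as higher, edgeR had 6 lower and 1 higher, and DESeq2 called 1 DEG lower, Tnmd, and 1 higher, Mgp. The 4 other thrombospondins had log2 fold changes of -0.41 (Thbs1, edgeR adjusted p = 0.00299), -0.17 (Thbs2), -0.23 (Thbs3) and -0.31 (Thbs4), none beyond 0.58. The ratio of Comp to Thbs1 overlapped between the groups (difference -0.22, exact p = 0.2), whereas Comp to Thbs2, Thbs3 and Thbs4 differed by -0.46, -0.41 and -0.32 without overlap. Mgp, a vitamin K-dependent inhibitor of calcification as Ucma is a vitamin K-dependent protein, moved the other way. It was at 1788 ± 82.4 FPKM (SD, n = 3) in CON and 2906 ± 119 FPKM (SD, n = 3) in RA (log2 fold change 0.69, SE 0.0556, edgeR adjusted p = 1.88e-04). The log2 ratio of Ucma to Mgp was -1.80 in CON and -4.26 in RA.

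Cilp2, the close relative of Cilp, had 3.97 ± 1.53 FPKM (SD, n = 3) in CON and 3.78 ± 0.490 FPKM (SD, n = 3) in RA, with overlapping groups. Its log2 fold change of -0.086 depended on single samples, at -0.37 (edgeR adjusted p = 0.0425) without CON1 and 0.15 without CON3. Cilp to Cilp2 differed by -1.10. Tenomodulin (Tnmd), the tendon relative of chondromodulin, was at 2.84 ± 0.833 FPKM in CON and 1.68 ± 0.300 in RA (log2 fold change -0.77, SE 0.251, edgeR adjusted p = 0.103), and Cnmd to Tnmd differed by -0.71. Clec11a, a lectin-domain growth factor of bone, changed by -0.29 on the log2 scale (edgeR adjusted p = 0.0190), and the ratios of Clec3a and Clec3b to it differed by -2.66 and -1.26. These 9 pairs were chosen after their values were seen. Of them, 8 did not overlap and had p = 0.1 in the exact test, or 0.1125 after adjustment over the 9.

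**Figure D4:**
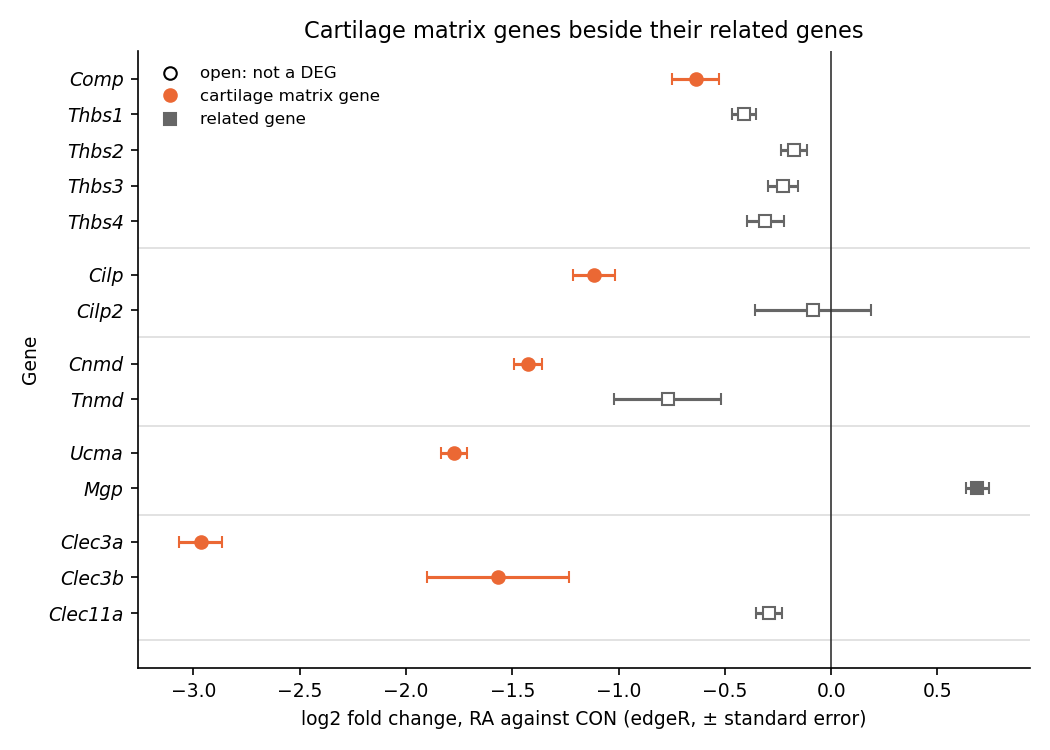
log2 fold change of RA against CON (± SE from edgeR) of 6 cartilage matrix genes (circles) beside genes related to them by sequence or domain (squares), with open symbols for genes that were not DEGs. Each circle lies further to the left than the related genes in its panel, and Mgp is the single symbol to the right of 0 (0.69).

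Of the partners that matrilins and COMP bind in the matrix, 11 were tested, 7 were DEGs lower in RA and 0 higher, with a median log2 fold change of -0.70. Aggrecan (Acan), the main proteoglycan of cartilage, stood at a log2 fold change of -1.51 (SE 0.0895, edgeR adjusted p = 4.78e-05), and the link protein Hapln1 at -1.30. The cartilage collagens followed with -0.86 for Col9a1, -0.78 for Col2a1, -0.76 for Col9a2, -0.70 for Col11a2 and -0.60 for Col11a1. Col11a2 was not a DEG without CON2 (-0.64), RA1 (-0.64) or RA2 (-0.71), nor was Col11a1 without CON1 (-0.56). Partners that were not DEGs are named after their values were seen. Col9a3 had -0.52 and became a DEG without CON1 (-0.68). Fibronectin (Fn1), among the most abundant partners, had 5335 ± 357 FPKM (SD, n = 3) in CON and 6524 ± 162 FPKM (SD, n = 3) in RA without overlap, a log2 fold change of 0.28 (edgeR adjusted p = 0.0161) under the fold threshold. Biglycan (Bgn) had -0.080 with overlapping groups, and decorin (Dcn) had -0.41 (edgeR adjusted p = 0.0378).

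Among 9 other proteins typical of cartilage that were tested, most of them secreted, 6 were DEGs lower in RA and 1 was a DEG higher. Their median log2 fold change was -1.12. Those lower were Chrdl2, a BMP antagonist, with -2.34, epiphycan (Epyc) with -1.75, Mia with -1.31, the Wnt antagonist Frzb with -1.16, the chondrocyte proteoglycan Snorc with -1.12 and Scrg1 with -0.59. Scrg1 kept its DEG call without CON3 (-0.73) and lost it without CON1 (-0.40), CON2 (-0.64), RA1 (-0.61), RA2 (-0.55) or RA3 (-0.62). Cytl1, a cytokine-like protein of chondrocytes, rose from 8.10 ± 0.265 FPKM (SD, n = 3) in CON to 18.9 ± 1.11 FPKM (SD, n = 3) in RA (log2 fold change 1.21, edgeR adjusted p = 6.36e-05).

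Of the proteases for which COMP or matrilins are known substrates, or that act in the same matrix, 10 were tested, 5 were DEGs higher in RA and 1 was a DEG lower, with a median log2 fold change of 0.39. Mmp13, the main collagenase of cartilage, rose from 50.9 ± 12.1 FPKM (SD, n = 3) to 246 ± 20.5 FPKM (SD, n = 3), with a log2 fold change of 2.26. Mmp9 had 2.88 from a low level (0.134 to 0.976 FPKM), Mmp3 1.02, the serine protease Htra1 0.68 and Adamts7, which cleaves COMP, 0.67. Adamts12, another protease that cleaves COMP, fell by 1.10 on the log2 scale (SE 0.0880, edgeR adjusted p = 1.82e-04). No protein was measured here, so whether any of the 10 proteins was cut was not tested.

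Of 8 transcription factors listed as regulators of cartilage genes, 2 were DEGs lower in RA and 0 were higher, beside 2.29% and 2.67% of all genes tested. The median log2 fold change of the 8 was -0.44. Erg, an ETS factor of articular cartilage, fell from 8.26 ± 1.12 FPKM (SD, n = 3) to 3.25 ± 0.164 FPKM (SD, n = 3), a log2 fold change of -1.36 (edgeR adjusted p = 2.63e-04). Sox6 had -0.61 and was not a DEG without RA1 (-0.52). Sox9 and Sox5, named after their values were seen, had -0.49 (edgeR adjusted p = 0.00608) and -0.51 (edgeR adjusted p = 0.00567), under the fold threshold.

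**Figure D5:**
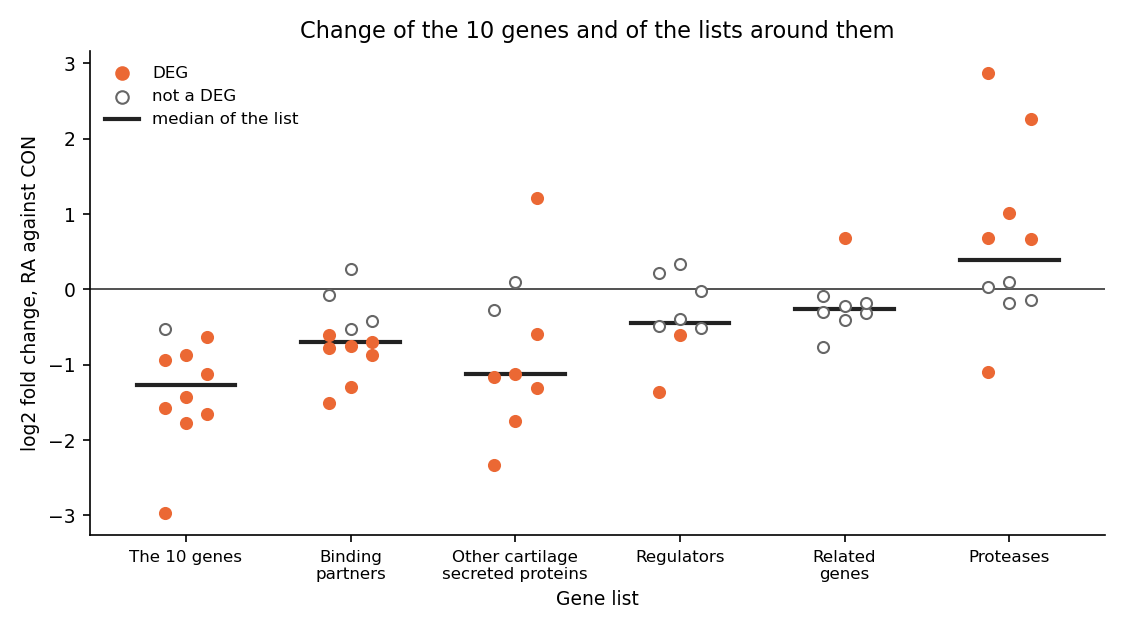
log2 fold change of RA against CON for every tested gene of the 10-gene set and of the lists around it, with DEGs filled and a bar at each list's median. The medians run from -1.27 for the 10 genes to 0.39 for the proteases, and that of all genes tested is -0.0057.

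In RefSeq's GRCr8 annotation the nearest protein-coding gene on each side gave 20 neighbours, picked for description after values were seen. Of these, 18 were tested, 1 was a DEG lower in RA and 0 were higher. Among all genes tested, 2.29% were DEGs lower and 2.67% DEGs higher, and a count of 1 in 18 cannot be set apart from these shares. The DEG was Vat1l beside Clec3a, a rare transcript with 39, 25 and 46 reads in CON and 5, 5 and 1 in RA (log2 fold change -3.15, SE 0.476, edgeR adjusted p = 0.00451). It was a DEG in all 6 fits that left out 1 sample. Phyh beside Ucma had a log2 fold change of -0.53 (edgeR adjusted p = 0.00844), under the fold threshold. Among the 6 fits that left out 1 sample, Phyh was a DEG without CON2 alone (-0.58, edgeR adjusted p = 0.0214). Matn1, Matn2 and Matn3 each lie beside a gene of the lysosomal Laptm family, and Laptm5, Laptm4b and Laptm4a had log2 fold changes of -0.61 (edgeR adjusted p = 0.199), 0.0071 and -0.15. Rbpjl overlaps Matn4 in this annotation, and whether the counting used strand is not given, so reads of this pair may not be fully apart. Rbpjl held 40 to 51 reads in CON and 22 to 25 in RA, beside 574 to 1016 and 480 to 552 for Matn4.

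Markers of chondrocytes and of other cell types were read beside these results, and those named here that were not DEGs were named after their values were seen. Among all genes tested, 2.29% were DEGs lower in RA and 2.67% DEGs higher. The 6 chondrocyte markers were strongly expressed in all samples, summing to 6057 to 8031 FPKM in CON and 3858 to 4155 FPKM in RA, and 5 of the 6 were DEGs lower in RA. Fibroblast markers held 0 DEGs among 5 tested (edgeR, with Dpt lower and Pdgfra higher at an unadjusted p below 0.05, and 0 DEGs by DESeq2) and summed to 3707 to 4901 FPKM in CON and 4800 to 5056 FPKM in RA. Both groups thus carried much fibroblast collagen mRNA, and their ranges overlapped. Pdgfra had 50.03 FPKM in CON and 68.4 in RA without overlap, a log2 fold change of 0.44 (edgeR adjusted p = 0.00155) under the fold threshold, while Dpt had an adjusted p of 0.204. Tendon markers (0 DEGs of 3 by edgeR, 2 lower at an unadjusted p below 0.05, and 1 DEG lower by DESeq2, Tnmd) summed to 19.1 to 27.5 FPKM in CON and 26.5 to 29.3 in RA. Most of this sum was Scx, with 16.1 FPKM in CON and 21.8 in RA without overlap (log2 fold change 0.42, edgeR adjusted p = 0.210, and 0.21 on the log2 scale without CON1), while Mkx had -0.41. Endothelial markers (0 DEGs of 1 tested by edgeR or DESeq2, and 0 at an unadjusted p below 0.05) summed to 5.33 to 7.99 FPKM in CON and 6.10 to 6.77 in RA, of which Cdh5, Kdr and Vwf were each below 0.031 FPKM in the mean. Osteoblast markers summed to 11.9 to 13.5 FPKM in CON and 12.3 to 12.9 in RA, with 1 DEG of 4 tested, Ibsp, higher in RA (0.550 against 1.54 FPKM). At an unadjusted p below 0.05 (edgeR), 1 of the 4 was lower and 2 were higher. Alpl, the most abundant of them, had 7.07 FPKM in CON and 5.35 in RA (log2 fold change -0.42, edgeR adjusted p = 0.0219), without overlap and under the fold threshold. Macrophage markers (0 DEGs of 3 tested by edgeR or DESeq2, 1 higher at an unadjusted p below 0.05) summed to 13.2 to 14.6 FPKM in CON and 16.1 to 17.3 in RA, without overlap, nearly all from Cd14, while Adgre1 was at 0 in CON and Ptprc at a mean of 0.0152 FPKM in CON and 0.0111 in RA. Synovial lining markers summed to 5.49 to 6.66 FPKM in CON and 5.41 to 6.11 in RA, with 1 DEG higher of 3 tested, Clic5, which was not a DEG without RA2 (log2 fold change 1.49). At an unadjusted p below 0.05 (edgeR), 0 of the 3 were lower and 1 was higher. Muscle markers summed to 4.69 to 6.00 FPKM in CON and 6.96 to 7.74 in RA, without overlap. Of 2 tested, Myod1 and Des, 2 were higher at an unadjusted p below 0.05 (edgeR). The 1 DEG, Myod1, was at 0.0932 against 0.366 FPKM and was not a DEG without CON2 (1.76), RA1 (1.80) or RA2 (1.89). In bulk RNA, fewer chondrocytes in a culture and less mRNA per chondrocyte cannot be told apart, and the part of other cells in the falls of the 10 genes was not tested.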

How the data were processed

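Each of the 6 samples came with a table of 18923 rows, each with a rat Ensembl gene identifier and its symbol. The deposited counts are whole numbers of reads per gene, without normalization, and the deposited FPKM values are scaled by the authors for gene length and library total. The submitters' processing notes name HISAT2, HTSeq 0.13.5 and Rnor_6.0; the annotation release and strand setting are not given in the sources used here. No genome of that build was used, so start site windows come from RefSeq's GRCr8 tables, credited where printed. Groups were taken from the sample labels.

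Counts were tested with edgeR 4.0.16 in R 4.3.3 (TMM scaling, filterByExpr with a minimum count of 10, 13438 genes kept, glmQLFit and glmQLFTest, all 6 samples, no covariates), and p-values were adjusted by Benjamini-Hochberg over all genes kept. SE is the log2 fold change divided by the square root of F. Ratios used log2(FPKM + 0.1) and an exact two-sided permutation test. The script was tested on simulated data. Alternatives were DESeq2 1.42.0, limma 3.58.1 on log2(FPKM + 0.1) and log2(FPKM + 1), other scalings and filters, other thresholds, a replicate block and leaving out each sample. The 10 genes and the gene lists were chosen with earlier results of these data known. All 10 genes are named; other genes are named from the lists where they were DEGs or relatives of the 10, or are said to be named after their values were seen. Intervals of counting error cover reads alone, since no molecular identifiers were used.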

Additional observations from a re-analysis of the deposited data

How the results depend on the processing

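Of the 10 genes, 9 were DEGs under every other tool, scaling, filter, pseudocount and threshold tried, and between 7 and 10 when 1 sample was left out. None of the 10 changed direction under any alternative. The number of DEGs among all genes tested was 667, and it was 434 with limma on log2(FPKM + 1), 1319 by adjusted p alone, 1017 by unadjusted p and fold change, and 480 to 755 when 1 sample was left out. The replicate block gave 9 DEGs among the 10 genes and 684 among all genes, and changed no call among the 10. With it the edgeR adjusted p was lower for Comp (4.41e-04) and Matn4 (0.0186). Among the 10 genes, Matn2 alone had a higher value (1.32e-04). Whether CON and RA samples of the same number were paired is not given. The residual correlations of same-numbered samples were 0.0927, -0.0123 and 0.012. CON1 correlated best with RA1, while CON2 and CON3 correlated best with RA3 and RA2. With 3 samples per group and CON1 standing apart, these correlations cannot decide whether samples were paired. The call of Matn4, Comp or Clec3b depended on which sample was left out, as given with each gene. The difference in the ratio of Cilp to Comp was -0.33 with a pseudocount of 1. Leaving out 1 sample, added after seeing the data, changed the count of regulators lower in RA from 2 to 1 (without RA1). At the lowest, binding partners lower in RA went from 7 to 6 and other cartilage proteins lower from 6 to 5. Chondrocyte markers lower went from 5 to 4, and muscle and synovial lining markers higher each went from 1 to 0. The remaining list counts did not change. Counting error was largest for Clec3b among the 10 genes.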
